A study of Mus musculus with 12 samples.

Results

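NRF2, encoded by Nfe2l2, and 9 of its antioxidant target genes (Slc7a11, Hmox1, Sod2, Fth1, Gclm, Gclc, Nqo1, Txnrd1 and Srxn1) were followed by RNA sequencing through sorted mouse T cells. The genes were chosen by name, as 10 of the 52459 genes in the table, and all 10 passed the filter on low counts. They were chosen with earlier results of these data known, so shares of the set set beside those of all genes are descriptions and no tests. The series holds 12 libraries in 6 groups of 2: γδ T cells sorted from wild type C57BL/6 mice fed an MCD diet, the same cells on the control diet, CD4+ T cells of γδTCR-/- mice on MCD and on control diet, and CD4+ T cells of wild type C57BL/6 mice on MCD and on control diet. The mice were 7 weeks old when the diets began and stayed on them for 6 weeks. MCD is the usual short name of a diet that lacks methionine and choline, and is widely used to give mice a fatty, inflamed liver. The labels name no tissue, do not describe the γδTCR-/- allele or give its strain, and do not say whether replicates came from separate mice, so p-values measure only the spread between these samples, which may be technical. γδ T cells were sequenced only from wild type mice.

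NRF2 is a transcription factor that KEAP1 and the CUL3 ubiquitin ligase hold at a low level by steady degradation. Oxidants and electrophiles block that degradation, and NRF2 then pairs with a small MAF protein on antioxidant response elements, a site for which BACH1 and BACH2 compete as repressors. Its targets import cystine, make and recycle glutathione and thioredoxin, break down haem, store iron and reduce quinones. Because NRF2 is controlled mainly as a protein, the level of Nfe2l2 mRNA is not a direct measure of its activity.

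The promoter sequences of 4 of the genes are shown because their levels in γδ T cells frame the results: Nfe2l2 and Slc7a11 stood highest in the MCD libraries, Srxn1 was present in γδ libraries on both diets, and Gclm holds the response element core although its levels did not follow those of Nfe2l2 outside the γδ MCD group. RefSeq windows on GRCm38.p6, from 250 bases before to 50 after a start site, were matched to 8 of the 10 genes (11 windows). Capitals mark matches on either strand to the antioxidant response element core TGACNNNGC, the AP-1 core TGACTCA, or TGATGNAA, a core bound by C/EBP and ATF factors; TGACTCA and TGATGNAA were added after the sequences had been read. The Nfe2l2 window is chr2:75704614-75704913 on the minus strand, that of Slc7a11 chr3:50443564-50443863 on the minus strand, that of Srxn1 chr2:152105274-152105573 on the plus strand, and that of Gclm chr3:122245307-122245606 on the plus strand.
Nfe2l2: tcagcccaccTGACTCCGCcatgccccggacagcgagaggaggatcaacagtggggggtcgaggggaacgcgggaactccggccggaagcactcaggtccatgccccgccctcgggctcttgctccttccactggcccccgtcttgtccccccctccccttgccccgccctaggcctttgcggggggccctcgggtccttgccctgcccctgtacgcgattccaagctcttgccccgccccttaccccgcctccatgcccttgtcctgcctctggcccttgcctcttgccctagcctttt
Slc7a11: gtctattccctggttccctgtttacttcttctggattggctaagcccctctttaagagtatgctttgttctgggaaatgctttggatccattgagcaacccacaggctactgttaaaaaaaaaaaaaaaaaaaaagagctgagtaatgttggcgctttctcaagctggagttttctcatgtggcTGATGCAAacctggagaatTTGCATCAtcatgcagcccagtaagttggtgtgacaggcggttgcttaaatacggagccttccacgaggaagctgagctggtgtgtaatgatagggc
Srxn1: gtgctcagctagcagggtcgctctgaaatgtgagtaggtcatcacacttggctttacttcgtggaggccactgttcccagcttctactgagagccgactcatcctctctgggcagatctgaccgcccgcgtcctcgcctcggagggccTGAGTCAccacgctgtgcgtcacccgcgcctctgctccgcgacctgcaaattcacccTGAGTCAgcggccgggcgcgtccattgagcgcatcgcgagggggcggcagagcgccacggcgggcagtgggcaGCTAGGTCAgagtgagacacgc
Gclm: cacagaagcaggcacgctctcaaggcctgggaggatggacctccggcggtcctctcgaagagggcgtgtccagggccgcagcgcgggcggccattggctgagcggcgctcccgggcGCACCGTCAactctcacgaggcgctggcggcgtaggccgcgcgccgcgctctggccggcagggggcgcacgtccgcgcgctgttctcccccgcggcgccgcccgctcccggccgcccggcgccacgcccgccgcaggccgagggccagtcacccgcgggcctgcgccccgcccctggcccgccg

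The response element core was in the windows of Nfe2l2 (TGACTCCGC, first base at -240 from the start site), Gclm (GCACCGTCA at -134), Txnrd1 (GCTTTGTCA at -92 in 1 of its 3 windows) and Srxn1 (GCTAGGTCA at 29). The AP-1 core lay in Srxn1 at -102 and -45, as TGAGTCA. In Slc7a11 the C/EBP and ATF core stood on both strands, as TGATGCAA at -66 and TTGCATCA at -47. None of the 3 cores was found in the windows of Sod2, Fth1 and Nqo1, which says only that these letters are not in those windows. Of all 32851 mouse windows of the same length, 12.4% held TGACNNNGC, 5.2% TGACTCA and 3.97% TGATGNAA. No overlap between the motifs occurred in the windows shown.

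Depth and purity were read before the genes. Total counts ran between 17035638 and 23203603 per library. Genes of the mitochondrial genome held 53.8 to 56.8% of them in γδ, 41.1 to 52.7% in γδTCR-/- CD4+ and 40.8 to 43.9% in wild type CD4+ libraries. Counts of all other genes were lowest in γδ MCD libraries, 7977220 and 9000102. They were 10415014 and 10153523 in γδ control and 9559392 to 10851934 in CD4+ libraries. The γδ MCD libraries had the fewest genes with at least 10 counts, 8989 and 10125, against 11903 and 12174 on control diet and 12100 to 13402 in the CD4+ groups. Their replicates were also the least alike (Pearson's r of log2 CPM, counts over the library total as scaled by the trimmed mean of M-values, TMM, across genes, which are not independent replicates, 0.732, against 0.807 between γδ control libraries and 0.84 to 0.863 within CD4+ groups). Trdc, the constant gene of the δ chain, had 538 to 733 CPM in γδ libraries and 0.231 to 7.93 in CD4+ libraries of both genotypes, so it sets the γδ sort apart but cannot check the knockout in CD4+ cells. Cd4 had 0.975 to 4.29 CPM in γδ libraries and 632 to 1448 in CD4+ libraries. The other members of its marker list, Trac, Trbc1 and Trbc2, were present in γδ libraries. They averaged 58.7, 138 and 79.5 CPM in γδ MCD against 341, 109 and 167 in wild type CD4+ MCD libraries. With Cd4 they summed to 153 to 404 CPM in γδ libraries and 1340 to 2608 in CD4+ libraries. Lck, a T cell kinase, stood at 2.06 CPM in γδ MCD replicate 2, against 70.3 to 140 in the other 11.

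Markers of other cells were present in the γδ libraries on both diets. The summed CPM of 15 Kupffer cell and macrophage genes was 2496 and 1762 in γδ MCD and 1068 and 2007 on control diet, against 17.0 to 69.0 in the CD4+ groups. Most of it came from Lyz2, at 1616 and 1178 CPM in γδ MCD and 616 and 1252 in γδ control libraries. Clec4f and Timd4, which mark resident Kupffer cells, were at 0 in both γδ MCD libraries, and 3 of the 15 markers were at 0 in each of them. Vsig4, also found on resident Kupffer cells, had 0.248 and 27.6 CPM in γδ MCD and 5.54 and 18.4 in γδ control libraries, and Csf1r, the receptor of macrophage growth factor, 269 and 273 CPM in γδ MCD and 138 and 212 in γδ control libraries. For 15 neutrophil and monocyte genes the sum was 1060 and 759 CPM in γδ MCD, 350.3 and 541 in γδ control and 39.5 to 193 in CD4+ libraries, with Ly6g and Retnlg at 0 in every γδ library. Of its other members Csf3r, the receptor of granulocyte growth factor, had 92.1 and 85.2 CPM in γδ MCD and 8.49 and 17.2 in γδ control libraries. S100a9 had 2.81 and 68.5 CPM in γδ MCD and 0 and 2.6 in γδ control libraries. The largest part of the sum came from Ccr2, averaging 475 ± 223 CPM in γδ MCD and 321 ± 107 in γδ control libraries. Mmp9 averaged 1.59 CPM in γδ MCD and 27.9 in γδ control libraries, and Ly6c2 37.1 and 56.3. Of 13 members tested between the diets in γδ cells, 11 had a log2 fold change above 0 (42.5% of all genes) and 2 below. The 12 sinusoidal endothelial genes ran the other way between the diets, at 147 and 141 CPM in γδ MCD and 777 and 1443 in γδ control libraries. The 5 T cell genes summed to 1329 and 1246 CPM in γδ MCD, 2101 and 1870 in γδ control and 941 to 1536 in CD4+ libraries. Most of it came from Cd3e, averaging 1010 CPM in γδ MCD and 629 in wild type CD4+ MCD libraries. Cd247 also averaged higher in γδ MCD, 132 against 103 CPM. Cd3d, Cd3g and Lck averaged lower, 53.3, 47.4 and 43.8 CPM in γδ MCD against 63.3, 80.5 and 96.9 in wild type CD4+ MCD libraries. The 8 dendritic cell genes summed to 189 and 91.0 CPM in γδ MCD and to 143 and 201 in γδ control libraries. These sums differ between the groups compared below, and their part in the results on γδ cells was not tested. In sorted bulk samples, fewer cells of a type and less RNA per cell cannot be told apart.

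**Figure D1:**
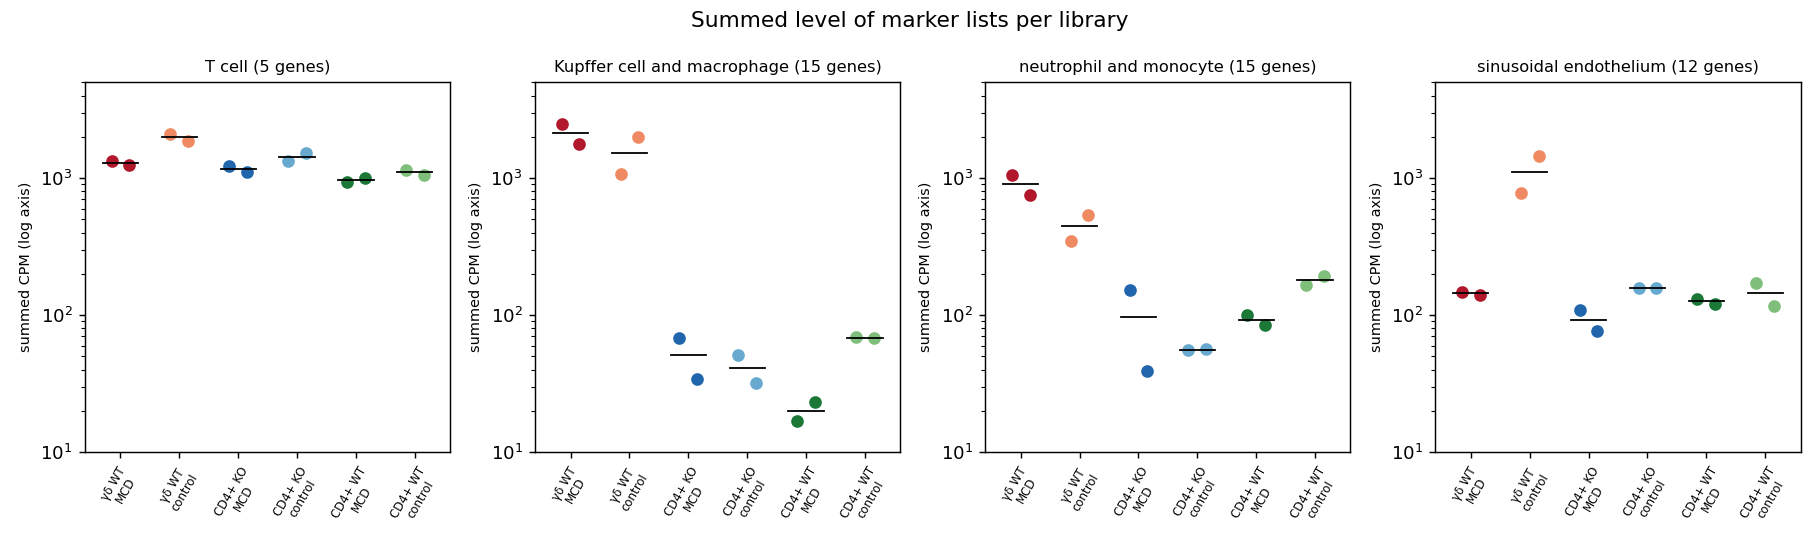
Summed CPM (log axis) of 4 marker lists in each library, by group; points are libraries and lines are means of 2. The macrophage sum is 1068 to 2496 in the 4 γδ libraries and 17.0 to 69.0 in the 8 CD4+ libraries, while the endothelial sum is high only in γδ control libraries (777 and 1443).

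Nfe2l2 (chromosome 2, 75675513 to 75704641, minus strand, GRCm38) had 1120 and 972 CPM in γδ MCD libraries and 178 and 295 CPM in γδ control libraries. In CD4+ libraries it had 74.4 and 89.7 CPM on MCD and 90.3 and 133 on control diet in γδTCR-/- mice, and 113 and 57.5 CPM on MCD and 100.5 and 86.7 on control diet in wild type mice. Both γδ MCD libraries lay above all others, and both γδ control libraries lay above all 8 CD4+ libraries. By mean CPM the groups stood in the order γδ MCD (1046 ± 105, SD, n = 2 as for every mean here), γδ control (237 ± 82.8), γδTCR-/- CD4+ control (112 ± 30.0), wild type CD4+ control (93.6 ± 9.71), wild type CD4+ MCD (85.4 ± 39.5) and γδTCR-/- CD4+ MCD (82.1 ± 10.8). Among the 4 CD4+ groups each overlapped its neighbours in that order.

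Slc7a11 (chromosome 3, 49892526 to 50443614), the cystine carrier of system xc-, had 1452 and 2082 counts (120 and 140 CPM) in γδ MCD libraries and 8 and 2 counts (0.407 and 0.108 CPM) in γδ control libraries. In CD4+ libraries it had 1 and 4 counts on MCD and 0 and 0 on control diet in γδTCR-/- mice. Wild type CD4+ libraries had 0 and 74 counts on MCD and 1 and 3 on control diet. A floor of 3 counts corresponds to 0.13 to 0.248 CPM over the libraries, so the gene was at or near the limit of detection outside the γδ MCD group, except for wild type CD4+ MCD replicate 3 at 3.42 CPM and γδ control replicate 6. Intervals and floors here cover counting error only.

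Hmox1 (chromosome 8, 75093621 to 75100589), the enzyme that opens haem and frees its iron, had 65.5 and 80.5 CPM in γδ MCD libraries and 4.02 and 6.66 CPM in γδ control libraries. CD4+ libraries ranged from 0.0983 CPM, in wild type MCD replicate 1, to 3.50 CPM, in γδTCR-/- MCD replicate 2. The 4 γδ libraries lay above all 8 CD4+ libraries. Fth1 (chromosome 19, 9980598 to 9985098), the heavy chain of ferritin that stores the freed iron, had 826 and 520 CPM in γδ MCD libraries and 293 and 256 CPM in γδ control libraries. In CD4+ libraries Fth1 ranged from 111 to 185 CPM, below every γδ library. Fth1 has processed copies elsewhere in the genome, and how reads shared with them were counted is not given in the sources used here, so its level is uncertain.

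Sod2 (chromosome 17, 13006846 to 13040063), the manganese superoxide dismutase of mitochondria, had 388 and 296 CPM in γδ MCD libraries and 76.3 and 116 CPM in γδ control libraries. CD4+ libraries ranged from 47.1 to 74.6 CPM. Sod2 is also a well known NF-kB target. Its 12 values and those of Fth1 keep the order seen for Nfe2l2, with γδ MCD first, γδ control next and CD4+ libraries below.

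The glutathione genes did not keep that order. Gclm (chromosome 3, 122245557 to 122270732), the modifier subunit of glutamate-cysteine ligase, had 27.7 and 30.5 CPM in γδ MCD libraries and 1.88 and 15.8 CPM in γδ control libraries, against 4.51 to 25.2 CPM in CD4+ libraries. Gclc (chromosome 9, 77754535 to 77794485), the catalytic subunit that sets the rate of glutathione synthesis, had 26.7 and 67.3 CPM in γδ MCD libraries and 49.0 and 42.6 CPM in γδ control libraries. CD4+ libraries had 11.7 to 70.0 CPM of Gclc. For Gclm both γδ MCD libraries lay above all others, while 1 γδ control library lay below all 8 CD4+ libraries and the other among them. For Gclc the γδ MCD libraries stood on either side of both γδ control libraries.

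Txnrd1 (chromosome 10, 82833951 to 82897712), the cytosolic thioredoxin reductase, had 52.2 and 31.7 CPM in γδ MCD libraries and 34.6 and 32.4 CPM in γδ control libraries, against 17.9 to 41.3 CPM in CD4+ libraries. Srxn1 (chromosome 2, 152105516 to 152111376), the sulfiredoxin that repairs over-oxidised peroxiredoxins, had 64.1 and 7.46 CPM in γδ MCD libraries and 13.1 and 9.10 CPM in γδ control libraries. In CD4+ libraries it had 37 and 4 counts in wild type MCD, 8 and 0 counts in γδTCR-/- MCD, and 0 in all 4 control diet libraries. Srxn1 thus separated γδ from CD4+ libraries on both diets, while the high value on MCD was that of 1 γδ library. Nqo1 (chromosome 8, 107388225 to 107403206), the quinone reductase often used as an NRF2 readout, had 0 and 40 counts in γδ MCD libraries and 0 and 26 in γδ control libraries, against 0 to 20 counts in CD4+ libraries. In both γδ groups 1 replicate held all of the Nqo1 counts.

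**Figure D2:**
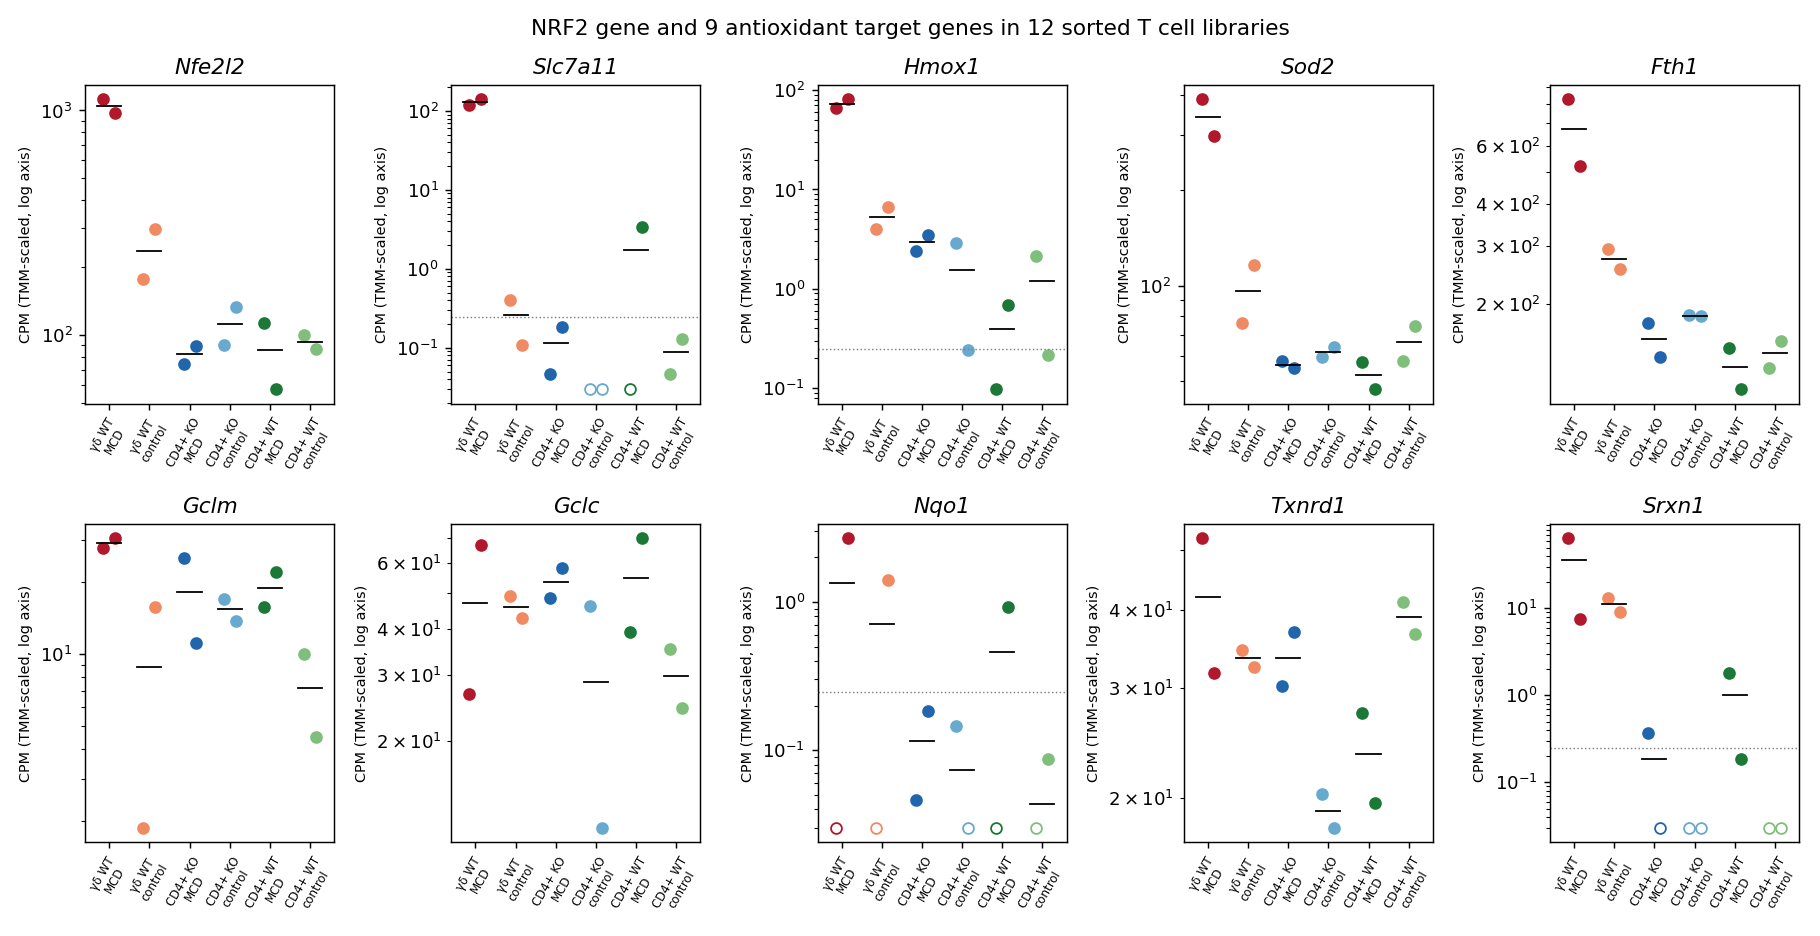
CPM (log axis, own scale for each gene) of the 10 genes in 12 libraries by group; points are libraries, lines the means of 2, open circles libraries with 0 counts (drawn at 0.03), and the dotted line the highest floor of 3 counts (0.248 CPM). Nfe2l2, Slc7a11, Hmox1, Sod2, Fth1 and Gclm have both γδ MCD libraries above all other libraries.

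Levels of different genes can be compared only per length, on the deposited FPKM (fragments per kilobase, scaled for depth). In γδ MCD libraries Fth1 was first at 966 and 591 FPKM, ahead of Nfe2l2 at 299 and 252, Sod2 at 103 and 76.3 and Hmox1 at 37.9 and 45.3. Slc7a11 had 8.72 and 9.89 FPKM there, and Gclc 7.17 and 17.6. In γδ control libraries Fth1 was again first (314 and 280 FPKM), then Nfe2l2 (43.6 and 73.7) and Sod2 (18.5 and 28.8), while Hmox1 had 2.13 and 3.60 FPKM. In wild type CD4+ MCD libraries Fth1 had 161 and 125 FPKM, Nfe2l2 28.2 and 14.7, and Sod2 14.1 and 11.96. Nqo1 was at or below 1.70 FPKM in every library.

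γδ and wild type CD4+ T cells on the MCD diet gave the comparison in which genes of the set were called, meaning an adjusted p under 0.05. Nfe2l2 was 12.25-fold higher in γδ cells (1046 ± 105 against 85.4 ± 39.5 CPM; log2 fold change 3.61, SE 0.40, adjusted p = 0.000641 by the quasi-likelihood test of edgeR, Benjamini-Hochberg adjusted over 16218 genes, as for all adjusted p-values here unless another tool is named). Sod2 was 6.56-fold higher (342 ± 64.9 against 52.2 ± 7.14 CPM; log2 fold change 2.71, SE 0.38, adjusted p = 0.00355). Fth1 was 5.21-fold higher (673 ± 217 against 129 ± 25.6 CPM; log2 fold change 2.38, SE 0.31, adjusted p = 0.00219). Hmox1 was 185-fold higher (73.0 ± 10.6 against 0.396 ± 0.420 CPM; log2 fold change 7.198, SE 1.63, adjusted p = 0.0359). That ratio rests on 2 and 15 counts in the CD4+ libraries, the first of them under the floor of 3 counts.

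These 4 of the 10 genes were called, all higher in γδ cells, where 2.65% of all genes tested were called, and 1.47% called as higher. Without overlap between the groups 8 of the 10 were higher, against 14.5% of all genes, and the 10 had a median log2 fold change of 2.55, with -0.30 for all genes tested. Slc7a11 had 120 and 140 CPM in γδ cells and 0 and 3.42 in CD4+ cells, a 76.0-fold ratio that missed the threshold (log2 fold change 6.16, SE 1.66, adjusted p = 0.0696). Srxn1 had a ratio of 35.7 (log2 fold change 5.03, SE 1.91, adjusted p = 0.167). Txnrd1 was 1.79-fold and Gclm 1.54-fold higher on average, neither past the threshold (adjusted p = 0.408 and 0.745). Gclc (adjusted p = 0.891) and Nqo1 (adjusted p = 0.796) overlapped between the groups.

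Fitted with only these 4 libraries, Nfe2l2 alone of the 10 was called (adjusted p = 0.0164) among 62 genes, with Sod2 and Fth1 at 0.0657 and Hmox1 at 0.087. Leaving out wild type CD4+ MCD replicate 3 left 2 calls, Nfe2l2 and Slc7a11, among 47 genes, with Hmox1 at 0.152, Sod2 at 0.0872 and Fth1 at 0.0542. Hmox1 was also lost without wild type CD4+ MCD replicate 1 (0.222) and without γδTCR-/- CD4+ MCD replicate 1 (0.0563) or 2 (0.0554). Scaling by total counts instead of TMM lowered the median log2 fold change of all genes by 0.67 and kept the 4 calls, with Nfe2l2 at 2.83 and Fth1 at 1.57. Under it 114 of 748 calls over all genes were higher in γδ cells, against 239 of 430 with TMM. Beside these values, the macrophage sum was 2496 and 1762 CPM in the γδ libraries and 17.0 and 23.2 in the CD4+ libraries compared, and its part was not tested.

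On the control diet the same genes had higher means in γδ than in wild type CD4+ cells, but none passed the threshold. Nfe2l2 averaged 237 ± 82.8 CPM in γδ cells and 93.6 ± 9.71 in CD4+ cells (2.53-fold, log2 fold change 1.34, SE 0.36, adjusted p = 0.165). Fth1 was 1.93-fold (adjusted p = 0.253), Hmox1 4.49-fold (adjusted p = 0.538) and Sod2 1.46-fold higher (adjusted p = 0.566) on average. Srxn1 had 13.1 and 9.10 CPM in γδ cells against 0 and 0 counts in CD4+ cells, at least 82.7-fold higher against 3 counts in each library (adjusted p = 0.145). Gclc was 1.53-fold higher and Txnrd1 stood at 0.860 of the CD4+ level, each without overlap (adjusted p = 0.783 and 0.94), while Gclm, Slc7a11 and Nqo1 overlapped.

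None of the 10 was called on the control diet, where 0.654% of all genes were called, while 6 were higher without overlap (20.1% of all genes), 1 was lower (25.8%) and 3 had an unadjusted p under 0.05 (5.4% of all genes, as higher). DESeq2 called 2 of them, Nfe2l2 (adjusted p = 0.0383) and Srxn1 (adjusted p = 0.000128), among 917 genes, and limma-voom 1, Srxn1 (adjusted p = 0.0402), among 244, against 106 genes by edgeR. With scaling by total counts the log2 fold change of Sod2 was -0.05 and that of Gclm -0.32, and 41 of 113 calls over all genes were higher in γδ cells, against 73 of 106 with TMM. The test of the cell type difference on MCD against that on control diet is the interaction given below.

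Within γδ cells Nfe2l2, Slc7a11, Hmox1, Sod2, Fth1 and Gclm stood higher on MCD in both libraries, but none passed the threshold. Nfe2l2 was 4.42-fold higher on MCD than on control diet (1046 ± 105 against 237 ± 82.8 CPM; log2 fold change 2.14, SE 0.37, adjusted p = 0.0724). Slc7a11 showed the widest ratio, 504-fold, against 10 counts in the pair of control libraries (log2 fold change 8.50, SE 1.82, adjusted p = 0.0912). Sod2 was 3.56-fold (log2 fold change 1.83, SE 0.37, adjusted p = 0.0761) and Fth1 2.45-fold higher (log2 fold change 1.29, SE 0.30, adjusted p = 0.0936). Hmox1 was 13.7-fold higher (log2 fold change 3.75, SE 1.41, adjusted p = 0.218). Gclm had 27.7 and 30.5 CPM on MCD against 1.88 and 15.8 on control diet, 3.30-fold on average (adjusted p = 0.384).

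None of the 10 was called between the diets in γδ cells, and neither was any other gene (0% of 16218). As a description of a set chosen with earlier results known, all 10 log2 fold changes were above 0, against 42.5% of all genes. Of the 10, 6 were higher on MCD without overlap (11.1% of all genes), and 5 had an unadjusted p under 0.05 (6.29% of all genes, as higher). The median of the 10 was 1.70, against -0.06 over all genes. Srxn1 (adjusted p = 0.621), Txnrd1 (0.826), Nqo1 (0.932) and Gclc (1) overlapped between the diets.

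Other tools called some of these genes: DESeq2 called 5 of the 10 (Slc7a11, Nfe2l2, Sod2, Fth1 and Hmox1, adjusted p = 8.04e-08 to 0.0122) among 2105 genes, limma-voom 3 (Nfe2l2, Slc7a11 and Sod2) among 63, and limma on log2(FPKM + 1) 4 (Nfe2l2, Slc7a11, Hmox1 and Sod2) among 148. The edgeR test itself called 3 without γδ MCD replicate 2 and 4 without γδ MCD replicate 4, among 484 and 1342 genes, where the remaining library is assumed to vary like the other groups. Beside these values, the neutrophil and monocyte sum was 1060 and 759 CPM on MCD against 350.3 and 541 on control diet without overlap, the macrophage sums overlapped, and the endothelial sum was lower on MCD; their part was not tested.

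**Figure D3:**
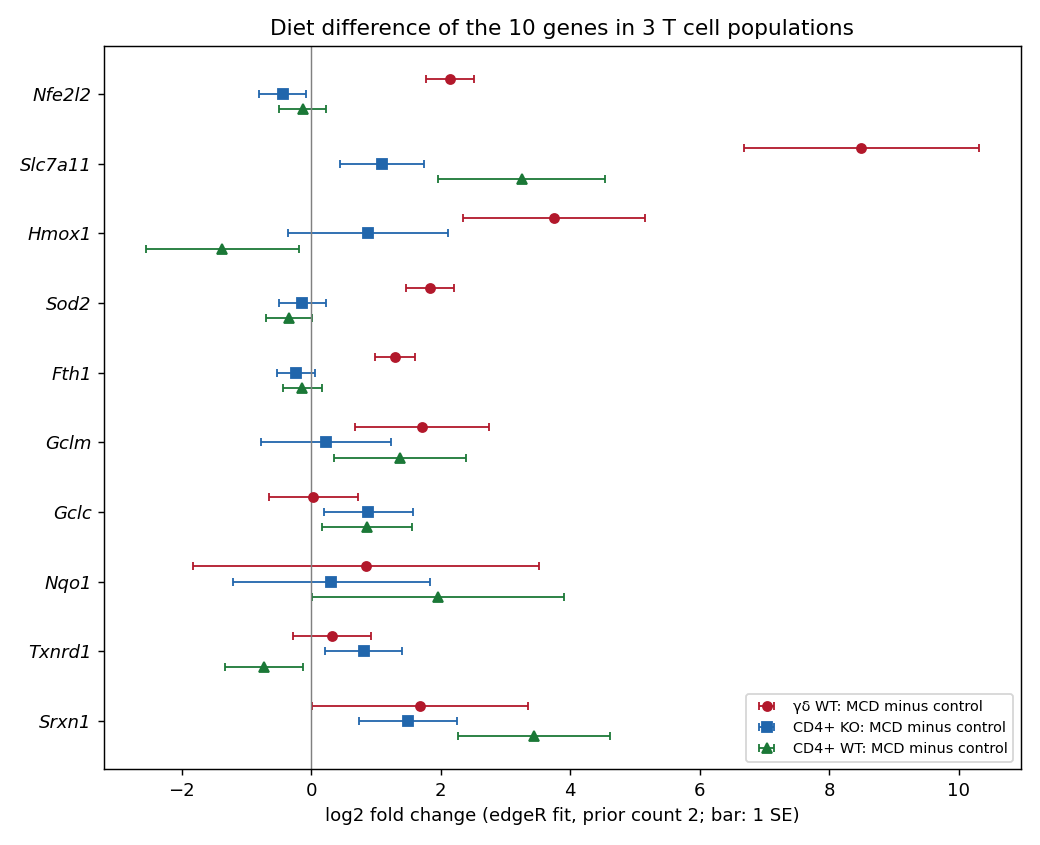
Log2 fold change (MCD minus control diet, with 1 SE) of the 10 genes in γδ cells, γδTCR-/- CD4+ cells and wild type CD4+ cells, from the edgeR fit of all 12 libraries. Nfe2l2 stands at 2.14 in γδ cells, -0.44 in γδTCR-/- CD4+ cells and -0.13 in wild type CD4+ cells, and no gene of the 10 passed the threshold in any of the 3.

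In CD4+ cells of γδTCR-/- mice the diet left Nfe2l2 at 74.4 and 89.7 CPM on MCD against 90.3 and 133 on control diet (log2 fold change -0.44, SE 0.36, adjusted p = 0.876). Gclc was 1.85-fold and Txnrd1 1.76-fold higher on MCD without overlap (adjusted p = 0.873 and 0.856), though Gclc rested on 11.7 CPM in 1 control library beside 45.9 in the other. Sod2 and Fth1 stood at 0.911 and 0.849 of their control level without overlap (adjusted p = 0.998 and 0.948), and scaling by total counts turned their log2 fold changes to 0.17 and 0.07. None of the 10 was called, where 0.037% of all genes were called. None had an unadjusted p under 0.05, and neither DESeq2 nor limma called any. Without overlap 3 were higher (20.8% of all genes) and 3 lower (18.1%).

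In CD4+ cells of wild type mice Nfe2l2 had 113 and 57.5 CPM on MCD against 100.5 and 86.7 on control diet (log2 fold change -0.13, SE 0.36). Srxn1 had 37 and 4 counts on MCD against 0 and 0 on control diet, at least 7.47-fold higher against 3 counts in each library, with an unadjusted p of 0.0134. Slc7a11 had 0 and 74 counts against 1 and 3 (unadjusted p = 0.0261), so its difference was that of 1 library: without wild type CD4+ MCD replicate 3 its log2 fold change was -0.90. Gclm was 2.62-fold and Gclc 1.83-fold higher on MCD, and Sod2 0.789 and Txnrd1 0.603 of the control level, all without overlap. None of the 10 was called (0% of all genes; adjusted p = 1 for each), by DESeq2 or limma either, and 2 had an unadjusted p under 0.05 (0.943% of all genes, as higher). Without overlap 3 were higher (16.7% of all genes) and 2 lower (17.2%).

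Whether the diet difference itself differed between γδ and wild type CD4+ cells was tested as an interaction. Its log2 value was 2.27 for Nfe2l2 (SE 0.51, adjusted p = 0.343), 2.17 for Sod2 (SE 0.51, adjusted p = 0.345), 1.43 for Fth1 (SE 0.42, adjusted p = 0.345) and 5.12 for Hmox1 (SE 1.86, adjusted p = 0.417). None of the 10 was called, nor any other gene (0%), and these 4 had an unadjusted p under 0.05, against 3.47% of all genes in that direction. DESeq2 called 3, Nfe2l2 (adjusted p = 0.0073), Sod2 (0.00224) and Hmox1 (0.0382), among 645 genes, and limma none. Without γδ MCD replicate 4 the edgeR test called 3, Nfe2l2 (adjusted p = 0.0327), Sod2 (0.0258) and Fth1 (0.0296), among 455 genes. The value of Slc7a11 was 5.24 (SE 2.55, adjusted p = 0.484). Those of Gclm (0.34, SE 1.43), Gclc (-0.83, SE 0.97), Txnrd1 (1.05, SE 0.85), Nqo1 (-1.11, SE 1.98) and Srxn1 (-1.76, SE 0.89) had adjusted p between 0.499 and 1. That of Srxn1 rests on 0 counts in both wild type CD4+ control libraries. The SE of Nqo1 and Srxn1 here are below those of the γδ diet difference they contain (2.68 and 1.67), so they do not measure precision.

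Between γδTCR-/- and wild type CD4+ cells none of the 10 was called on MCD (0% of all genes) or on control diet (0.0247% of all genes), nor by DESeq2 or limma. On MCD Hmox1 had 2.40 and 3.50 CPM in γδTCR-/- cells against 0.0983 and 0.693 in wild type cells (2 and 15 counts), 7.45-fold. Txnrd1 was 1.43-fold higher there, and these were the 2 of the 10 that were higher without overlap (15.9% of all genes). Of the 10, Slc7a11 alone had an unadjusted p under 0.05 on MCD (0.0351; 0.943% of all genes as lower), with 1 and 4 counts in γδTCR-/- cells against 0 and 74 in wild type cells. On control diet Txnrd1 had 20.3 and 17.9 CPM in γδTCR-/- cells against 41.3 and 36.6 in wild type cells, 0.491 of the wild type level, while Gclm was 2.13-fold and Fth1 1.30-fold higher. Without overlap 2 of the 10 were higher (16.7% of all genes) and 2 lower (20.6%), the second being Slc7a11 at 0 and 0 against 1 and 3 counts, and none had an unadjusted p under 0.05. The interaction of genotype and diet also called none of the 10 (0% of all genes), none with an unadjusted p under 0.05, and none by DESeq2 or limma. The comparisons above share libraries (each group enters 2 or more of them), so they are not independent of each other.

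The genes around NRF2 were read from lists chosen with earlier results of these data known. Of 12 regulators and partners none was called in any comparison. Between the diets in γδ cells they had a median log2 fold change of 1.01, with 5 higher (11.1% of all genes) and 2 lower (22.1%) without overlap. Cul3, the scaffold of the ligase that degrades NRF2, had 104 and 124 CPM on MCD against 269 and 300 on control diet (log2 fold change -1.32, adjusted p = 0.0936). Bach1 had 98.2 and 90.1 CPM on MCD against 15.7 and 39.3 on control diet (log2 fold change 1.77, adjusted p = 0.238). Bach2, a repressor that also restrains effector differentiation of T cells, had 88.2 and 125 CPM against 82.9 and 22.6 (1.01, adjusted p = 0.289). Keap1 had 48.8 and 3.76 CPM on MCD against 19.0 and 2.71 on control diet, so its replicates differed more than the diets. The small MAF genes were as uneven, with Mafg at 10.3 and 34.8 CPM against 6.36 and 13.8, Mafk at 7.76 and 79.3 against 16.1 and 3.68, and Maff at 0.908 and 6.52 against 22.9 and 6.17. Gsk3b, a kinase that marks NRF2 for a KEAP1-independent route of degradation, had 359 and 340 CPM against 227 and 286 (0.44, adjusted p = 0.375). Outside γδ cells, Cul3 was also lower on MCD without overlap in wild type CD4+ cells (136 and 220 against 273 and 281 CPM). In γδTCR-/- CD4+ cells Cul3 overlapped between the diets.

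Of 15 glutathione genes 12 were tested. Between γδ and wild type CD4+ cells on MCD 1 was called, where 2.65% of all genes were called, and none elsewhere. It was Gstm1, a glutathione transferase, with 1026 and 429 counts (84.7 and 28.8 CPM) in γδ cells against 0 and 0 in CD4+ cells. The ratio was at least 397-fold (adjusted p = 0.0204). On control diet Gstm1 overlapped, at 16.5 and 3.2 CPM in γδ and 8.47 and 0.390 CPM in wild type CD4+ libraries (2.23-fold, adjusted p = 0.803). The γδTCR-/- CD4+ libraries had 67 and 18 counts on MCD and 15 and 20 on control diet. Of the 12 tested, 7 were higher in γδ cells on MCD without overlap (14.5% of all genes) and 2 lower (32%), with a median log2 fold change of 1.92. Between the diets in γδ cells the same list had 6 higher (11.1% of all genes) and 1 lower (22.1%) without overlap, a median of 1.42, and none called. Slc3a2, the heavy chain that partners SLC7A11 in the cystine carrier, had 45.7 and 172 CPM in γδ MCD libraries against 56.6 and 47.9 in γδ control libraries (adjusted p = 0.36). Gpx1, the main glutathione peroxidase of the cytosol, had 92.5 and 167 CPM in γδ cells on MCD against 50 and 79.8 on control diet (log2 fold change 0.999, adjusted p = 0.346). In wild type CD4+ cells Gpx1 was also higher on MCD without overlap (1.92-fold), and in γδTCR-/- CD4+ cells lower (0.677 of the control level).

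Of 12 thioredoxin and peroxiredoxin genes none was called, and their median log2 fold change between the diets in γδ cells was -1.08, on the other side of 0 from that of the 10 genes. Of these, 2 were higher on MCD (11.1% of all genes) and 5 lower (22.1%) without overlap. Txnip, which binds and inhibits thioredoxin, had 268 and 295 CPM on MCD against 218 and 200 on control diet (adjusted p = 0.457), and Prdx6 60.5 and 59.2 against 52.1 and 54.1 (adjusted p = 0.928). Both are named for the highest mean CPM of the list, and they are the 2 that were higher. The 5 lower genes are not named here.

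Of 11 iron and haem genes tested none was called, with a median of -0.14 between the diets in γδ cells and 0.74 between γδ and wild type CD4+ cells on MCD. Ftl1, the ferritin light chain, had 89.9 and 164 CPM in γδ MCD libraries, 120 and 71.6 in γδ control libraries and 39.3 and 47.2 in wild type CD4+ MCD libraries. The rows Ftl1-ps1 and Ftl1-ps2, copies of it, held at most 16 counts. Ireb2, which blocks ferritin translation when iron is scarce, had 69.3 and 20.5 CPM in γδ MCD libraries against 64.3 and 37.4 in γδ control libraries (adjusted p = 0.931).

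Of 8 NADPH genes tested none was called, with a median of 0.66 between the diets in γδ cells and 1.55 between the cell types on MCD. G6pdx, the first enzyme of the pentose phosphate pathway, had 145 and 68.9 CPM in γδ MCD libraries, 56.6 and 52.6 in γδ control libraries and 31.4 and 9.74 in wild type CD4+ MCD libraries (γδ over CD4+ on MCD 5.20-fold, adjusted p = 0.0645). Pgd, the third enzyme of that pathway, had 21.2 and 171 CPM in γδ MCD libraries against 32.6 and 39.3 in γδ control libraries.

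Of 9 genes tested for superoxide and peroxide removal and quinone reduction, 2 were called between γδ and wild type CD4+ cells on MCD. Of all genes 2.65% were called there, and none of the 9 was called elsewhere. Cat, the catalase of peroxisomes, had 354 and 302 CPM in γδ cells against 106 and 150 in CD4+ cells (2.56-fold higher, adjusted p = 0.0462), and 341 and 261 CPM in γδ control libraries. Ephx1, an epoxide hydrolase, had 0 and 1 count in γδ cells against 338 and 184 in CD4+ cells, a ratio of 0.00298 of pooled counts (95% exact counting interval 7.5e-05 to 0.0167, adjusted p = 0.0296). In γδ control libraries Ephx1 had 9.56 and 3.63 CPM (γδ MCD against γδ control, adjusted p = 0.0936). Sod1, the copper and zinc superoxide dismutase, had 305 and 160 CPM in γδ MCD libraries against 153 and 124 in γδ control libraries (adjusted p = 0.311).

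Slc7a11 and Sod2 also answer to ATF4 and to NF-kB, so those lists were read beside them. Of 14 ATF4 and amino acid response genes tested 1 was called, between γδ and wild type CD4+ cells on MCD. Of all genes 2.65% were called there. The 1 was Atf3, a stress-induced repressor, with 2057 and 158 counts (170 and 10.6 CPM) in γδ cells against 0 and 1 in CD4+ cells. Its ratio of pooled counts was 3446 (95% exact counting interval 618 to 136200, adjusted p = 0.0239). The list's median between the diets in γδ cells was -0.36. Atf4 itself had 20.8 and 145 CPM in γδ MCD libraries against 51.8 and 73.9 in γδ control libraries. Slc7a1, an arginine carrier, had 156 and 94.1 CPM on MCD against 63.2 and 77.8 on control diet (adjusted p = 0.335). Of 12 NF-kB targets none was called, and their median between the diets in γδ cells was 1.45, with 4 higher (11.1% of all genes) and 1 lower (22.1%) without overlap. Tnfaip3, a brake on NF-kB, had 403 and 171 CPM on MCD against 160 and 60.9 on control diet (adjusted p = 0.249), and Birc3 227 and 257 against 97.8 and 54.5 (adjusted p = 0.0912).

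**Figure D4:**
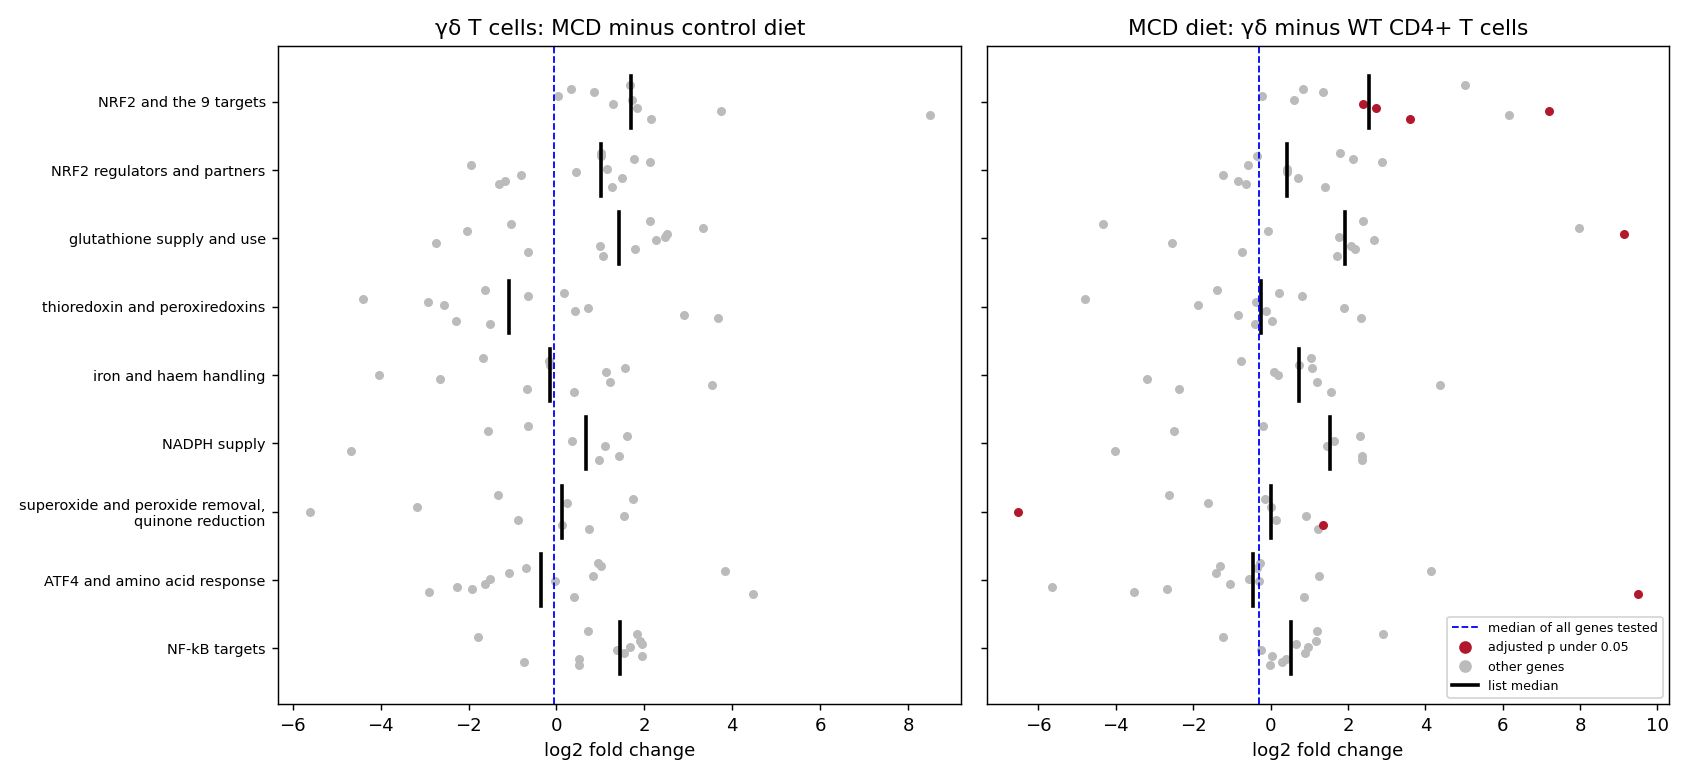
Log2 fold change of each tested gene in 8 lists and in the set of 10, for γδ cells on MCD minus control diet (left) and for γδ minus wild type CD4+ cells on MCD (right); black lines are list medians, the dashed line the median of all genes, and red points passed an adjusted p of 0.05. The set of 10 has medians of 1.70 and 2.55, and the 8 red points of the right panel are Nfe2l2, Hmox1, Sod2, Fth1, Gstm1, Cat, Ephx1 and Atf3.

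The genes whose pattern over the 12 libraries was closest to that of Nfe2l2 were sought among 4671 named genes that averaged 20 CPM or more, by the root mean square difference of centred log2 CPM. Among the closest were Pld3 (0.35), Sod2 (0.47), mt-Nd2 (0.54) and Tgfbr1 (0.58), the smallest distances first, and Fth1 came in place 8 (0.61). Pld3, a lysosomal exonuclease, had 135 to 148 CPM in γδ MCD libraries, 42.9 to 51.4 in γδ control libraries and 10.7 to 37.98 across the 8 CD4+ ones. Tgfbr1, a TGF-β receptor, had 211 to 238 CPM in γδ MCD libraries and 75.6 to 124 in γδ control libraries. Of the other targets Txnrd1 came in place 1004, Gclc in 2682 and Slc7a11 in 4496, the last with a far wider range than Nfe2l2. The 12 libraries share their groups, so this likeness is a description of those groups and no test.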

How the data were processed

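RNA of sorted γδ and CD4+ T cells was sequenced in 12 libraries, 2 in each of 6 groups taken from the labels. The label of γδ MCD replicate 2 is D2-D1_GDT, and its number was read from the first code. D1 is also the code of wild type CD4+ MCD replicate 1, and the labels do not say whether both came from the same mouse, in which case the γδ and CD4+ groups on MCD would share it. Per the submitters' processing notes, bcl2fastq, STAR, featureCounts and DESeq2 were used on mm10 (GRCm38), with no versions. The authors deposited raw counts per gene symbol, which were tested as deposited, and FPKM, whose scaling between libraries follows median-of-ratios size factors rather than totals. Annotation, strand setting and treatment of multiply mapped reads are not given in the sources used here. All columns belonged to samples of the series.

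Genes were kept by filterByExpr in edgeR 4.0.16 under R 4.3.3 (minimum count 10, minimum total 15), which left 16218 of 52459. Counts were scaled by TMM and all libraries fitted together, with 1 coefficient per group and quasi-likelihood tests (2-sided, Benjamini-Hochberg, threshold 0.05, prior count 2). The SE of a log2 fold change is its size over the root of F. The prior count shrinks the log2 fold change but not F, so with groups at or near 0 counts this SE does not measure precision. CPM are counts scaled to the TMM-adjusted total, and folds are ratios of mean CPM. Against a group with no counts, folds use a floor of 3 counts per library, and with 1 to 3 counts in a group the ratio of pooled counts has an exact 95% interval. Alternatives were DESeq2 1.42.0, limma 3.58.1 (voom, and log2 FPKM with pseudocounts of 1 and 0.1), other scalings, no filter, only the groups compared, mitochondrial genes left out, a replicate block and each library left out in turn.

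The 10 genes and all lists were chosen with earlier results of these data known. All 10 are described; of each list the called genes, the 2 with the highest mean CPM and 6 named regulators are given. Of the genes closest in pattern to Nfe2l2, 1 is not reported here. Positions are from GENCODE vM21 and promoters from RefSeq GRCm38.p6.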

Additional observations from a re-analysis of the deposited data

How the results depend on the processing

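Direction and call held for most values. Of the 10 genes, the number called between γδ and wild type CD4+ cells on MCD was 4, and 1 when only the groups compared were fitted (2 to 5 with each library left out). Between the diets in γδ cells it was 0, but 4 with no filter, 2 with only the groups compared, 3 by limma-voom, 4 on log2(FPKM + 1), 4 on log2(FPKM + 0.1) and 5 by DESeq2 (0 to 4 with each library left out). Between γδ and wild type CD4+ cells on control diet it was 0, but 2 with no filter, 1 by limma-voom and 2 by DESeq2 (0 to 1). For the diet difference between γδ and wild type CD4+ cells it was 0, but 1 with no filter and 3 by DESeq2 (0 to 3). In the other 5 comparisons it was 0 under every alternative run. The cause of these shifts was not tested.

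Genes called over the whole table moved more. With no filter, counts were 555 (diet, γδ), 19 (diet, wild type CD4+), 105 (diet, γδTCR-/- CD4+), 1071 (γδ against CD4+ on MCD), 354 (the same on control diet), 11 and 52 (genotype on MCD and on control diet), and 113 and 44 (interactions of diet with cell type and with genotype), against 0, 0, 6, 430, 106, 0, 4, 0 and 0 as reported. In that order DESeq2 called 2105, 40, 266, 2887, 917, 39, 122, 645 and 71. With only the groups compared, the counts were 9 (diet, γδ), 28 (diet, γδTCR-/-), 62 and 234 (cell types), 1 and 11 (genotype) and 1 (genotype interaction). By limma-voom they were 63, 19, 787 and 244 for the diet in γδ and γδTCR-/- cells and the cell types on MCD and control diet, and 1 for the genotype interaction. On log2(FPKM + 1) they were 148, 15, 659 and 287 for the same 4, and 5 and 2 for genotype on MCD and control diet. On log2(FPKM + 0.1) they were 210 (diet, γδ), 932 and 282 (cell types) and 3 (cell type interaction). Scaling by library size, chosen after seeing the data, gave 3 (diet, γδ), 10 (diet, γδTCR-/-) and 748 (cell types on MCD), and leaving out mitochondrial genes 2 (diet, γδ). With each library left out, the counts ranged over 0 to 1342 (diet, γδ), 0 to 42 (diet, γδTCR-/-), 47 to 2095 and 27 to 305 (cell types on MCD and control diet), 0 to 6 (genotype on control diet), 0 to 455 and 0 to 1 (interactions), and stayed at 0 for the diet in wild type CD4+ cells and genotype on MCD.

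Single log2 fold changes that turned sign were small, rested on 1 library, or turned with the tool or scaling. Library-size scaling turned Gclm between the cell types on MCD (0.62) and Sod2 between them on control diet (0.54), both without overlap. Gclc between the diets in γδ cells (0.04) was -0.14 with library-size scaling, -0.055 by limma-voom, -0.0069 on log2(FPKM + 1) and -0.0178 on log2(FPKM + 0.1). Library-size scaling, which shifted the median of all genes by -0.21 (diet, γδ), 0.29 (diet, γδTCR-/-), -0.67 and -0.53 (cell types on MCD and control diet), -0.34 (genotype on control diet), and -0.17 and 0.29 (interactions with cell type and genotype), gave 0.17 for Sod2 and 0.0682 for Fth1 between the diets in γδTCR-/- cells. It gave -0.18 for Gclm between the cell types on MCD, and -0.0465 for Sod2 and -0.32 for Gclm on control diet, where Gclm was also -0.31 by limma-voom and -0.20 on log2(FPKM + 0.1). Srxn1 in the cell type interaction was 0.62 on log2(FPKM + 1). With each library left out, ranges that crossed 0 in the diet comparison of γδ cells were Txnrd1 -0.0551 to 0.64, Srxn1 -0.54 to 2.53, Gclc -0.77 to 0.58 and Nqo1 -3.00 to 3.85. For the diet in wild type CD4+ cells they were Nfe2l2 -0.70 to 0.28, Slc7a11 -0.90 to 4.21, Fth1 -0.35 to 0.0507, Nqo1 -0.51 to 2.82 and Hmox1 -2.69 to 0.64, and in γδTCR-/- cells Gclm -0.46 to 0.70 and Nqo1 -0.24 to 1.09. Between γδ and CD4+ cells they were Gclc -1.06 to 0.30 and Nqo1 -2.51 to 3.82 on MCD, and Gclm -1.91 to 1.08 and Nqo1 -0.52 to 3.35 on control diet. In the cell type interaction they were Gclm -0.48 to 2.52, Nqo1 -4.98 to 1.87 and Srxn1 -4.03 to 0.19.

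Among the groups compared, both replicate numbers were shared only by the γδTCR-/- CD4+ groups on MCD and on control diet, where same-numbered libraries did not deviate together (r -0.00589 across genes); the other pairs shared at most 1 number. A replicate block, fitted with those γδTCR-/- CD4+ libraries alone, called 0 of the 10 and 204 genes. The 0 and 6 reported are from the fit of all 12 libraries, so the block is not the only difference. The count for these groups alone without a block is given above. With 2 libraries a group and counts of 0 to 74 for Slc7a11 and Srxn1 in CD4+ cells, depth limits what can be said of those genes there.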
